A study of Homo sapiens with 4 samples.

Results

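MCM2 to MCM7 and PCNA are genes of DNA replication, and their messenger RNAs were read here at the point where each is cut and given its poly(A) tail. A region in the deposited table was taken as a member when it lay on the gene's strand inside a window set around that gene on the hg19 build. This gave 22 of the 31081 poly(A) regions, spread over all 7 genes. MCM2 had 1 region, MCM5 had 2, MCM6 and MCM7 had 3 each, MCM3 and PCNA had 4 each, and MCM4 had 5. The table itself names no genes, so the names rest on the windows.

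The cells were DICER(ex5), a line derived from the HCT116 colon cancer cells and labelled as a hypomorph for Dicer, the ribonuclease that cuts microRNA precursors. No other genotype or treatment is among the samples, so the 4 libraries form 1 group, and nothing here can be set against cells with full Dicer activity. The labels do not say whether the line is a single clone. The design text describes biological quadruplicates, and no label ties a library to a day or a batch, so the spread between libraries may be partly technical. The libraries held 5211279, 2163977, 5713530 and 3984278 reads. Libraries 1 and 2 resembled each other, as did libraries 3 and 4, in this table as a whole. The share of reads in very narrow regions, of 5 bases or fewer, came to 1.80% in library 1 and 1.59% in library 2, but to 0.170% in library 3 and 0.180% in library 4. That division returns in some of the values below, and what underlies it was not tested.

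The MCM2 to MCM7 proteins form a ring with 1 copy of each, the core of the helicase that unwinds DNA ahead of the fork. The ring is loaded onto origins before S phase, in excess over the origins that later fire, and is switched on as S phase begins. PCNA is the sliding clamp that holds DNA polymerases on the template and recruits ligase, nuclease and repair factors. In proliferating cells these genes are transcribed together towards S phase, largely through E2F transcription factors.

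The promoters are shown because E2F control is what textbooks give these genes in common. RefSeq promoters on GRCh38.p14, of 250 bases before and 50 after the start, were listed for MCM2, MCM3, MCM6, MCM7 and PCNA. They were searched on both strands for 4 spellings of the E2F site, TTTCCCGC, TTTCGCGC, TTTGCCGC and TTTGGCGC. At least 1 of them was found in the most upstream promoter of 5 of the 5 genes, against 3.31% of all 35116 promoters and 3.99% of the 27305 gene symbols with any promoter. The spellings were chosen after the promoters had been seen, so these shares are a description and support nothing about the genes. The further promoters listed for MCM7 and PCNA held none. The matches are printed below in capitals, read along the gene's strand. In MCM2 and in both MCM6 stretches a pair of matches on opposite strands overlaps, so the capitals run on as one.
MCM2, chr3:127598404-127598433 (+): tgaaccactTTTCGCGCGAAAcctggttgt
MCM3 upstream, chr6:52284900-52284925 (-): gatggtacgTTTCCCGCcaccgcggg
MCM3 at the start, chr6:52284730-52284755 (-): ttcggaagtTTTCGCGCcggggtgga
MCM6 upstream, chr2:135876575-135876604 (-): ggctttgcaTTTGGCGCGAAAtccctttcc
MCM6 near the start, chr2:135876513-135876542 (-): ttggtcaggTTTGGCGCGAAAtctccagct
MCM7 upstream, chr7:100101568-100101593 (-): gctcggaccGCGGGAAAcccggcgcc
MCM7 at the start, chr7:100101390-100101415 (-): ggggcgacgTTTCGCGCcaatttcgg
PCNA, chr20:5126665-5126690 (-): gcgtcagggGCGGGAAAaggcgtgcg

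In MCM3 the matches began 174 and 4 bases upstream of the annotated start, in MCM6 152 and 90 bases upstream, in MCM7 187 and 9 bases upstream and in PCNA 59 bases upstream. A match is only a run of letters; no binding was measured. The promoter coordinates belong to GRCh38.p14 and all poly(A) coordinates below to hg19, so they cannot be compared directly.

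MCM7 has a further tie to Dicer: an intron of it hosts the microRNAs miR-106b, miR-93 and miR-25, whose hairpins Dicer cuts. RefSeq places them inside the gene on its own strand. Their mature forms are given with the seed, bases 2 to 8, in capitals. They are shown because they derive from the primary transcript of a member; mature microRNAs were not measured.
hsa-miR-106b-5p: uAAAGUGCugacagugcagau
hsa-miR-93-5p: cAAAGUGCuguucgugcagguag
hsa-miR-25-3p: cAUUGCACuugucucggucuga
The miR-106b-5p and miR-93-5p forms share the seed AAAGUGC, while miR-25-3p carries AUUGCAC.

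All 7 genes were well expressed. A poly(A) read marks 1 transcript end whatever the transcript's length, so read counts scaled to the library total (CPM, counts per 1000000 reads) can be set side by side between genes without a length correction. Joining regions of a strand that lie within 5 kb gave 17963 loci. Among them MCM2, the lowest member, lay at the 90.3 percentile of mean CPM, and MCM7, the highest, at the 97.9 percentile. These are bulk libraries, in which fewer cells in S phase and less RNA in each cell cannot be told apart.

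MCM7, a subunit of the catalytic core with MCM4 and MCM6, had 373.6, 395.1, 434.9 and 418.6 CPM in libraries 1 to 4. MCM3, which pairs with MCM5 in the ring, had 413.3, 427.0, 363.0 and 375.5 CPM. These genes led the order, and their places changed: MCM3 was ahead in libraries 1 and 2 and MCM7 in libraries 3 and 4. Their means were 405.6 ± 26.9 CPM for MCM7 and 394.7 ± 30.4 CPM for MCM3 (SD, n = 4). MCM4, a target of the CDC7 kinase that activates the helicase, had 242.9, 274.5, 270.8 and 264.5 CPM. MCM5, which with MCM2 forms the gate through which the ring opens on DNA, had 252.9, 267.6, 242.1 and 259.0 CPM. The MCM4 and MCM5 ranges overlapped, and the genes exchanged places between libraries. MCM6 had 189.8, 199.2, 219.8 and 221.6 CPM. MCM2, which also binds histones, was the lowest gene in every library, with 117.2, 108.1, 138.3 and 149.1 CPM.

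PCNA behaved unlike the helicase genes. It stood at 197.6 CPM in library 1 and 189.5 in library 2, but at 336.6 in library 3 and 317.2 in library 4, a mean of 260.2 ± 77.5 (SD, n = 4). It was the fifth of the genes in library 1, the sixth in library 2 and the third in both others. Its coefficient of variation (SD over mean) was 29.8%, where counting error alone gives 3.44%. Among the 3735 loci with at least 1000 reads the median coefficient of variation was 10.7%, and 8.03% of them varied more than PCNA. MCM2 came next at 14.7%, and the other members lay between 4.20% for MCM5 and 7.69% for MCM3, below that median. In MCM3 to MCM7 counting error alone gives between 2.59% for MCM7 and 3.63% for MCM6. Loci with fewer reads vary more by counting, and the median was not matched for depth.

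**Figure D1:**
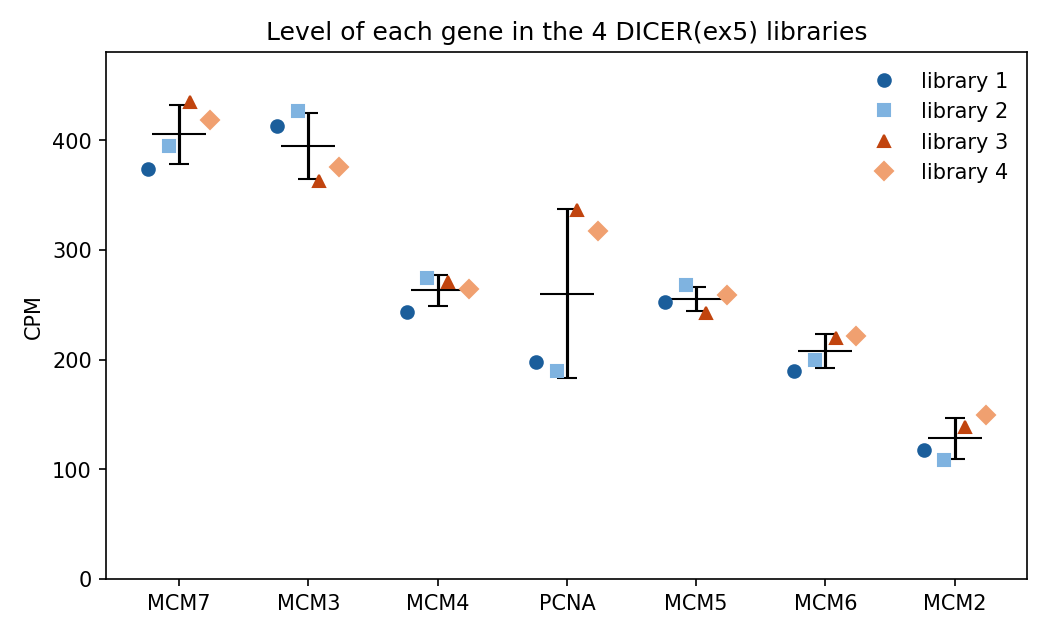
CPM (counts per 1000000 reads, vertical axis) of each gene in each library, ordered by mean; points are libraries, the long bar is the mean and the whisker 1 SD (n = 4). The PCNA points divide into 189.5 to 197.6 CPM in libraries 1 and 2 and 317.2 to 336.6 CPM in libraries 3 and 4, while each MCM gene stays within a 1.38-fold range.

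Neighbours in the order were compared by the log2 ratio of their CPM within each library, with an exact sign-flip permutation test (two-sided). Its smallest possible p with 4 libraries is 0.13, so no pair could pass 0.05. The order came from the mean CPM of these same libraries, so the p-values only describe it. The SEs treat the 4 libraries as independent, though libraries 1 and 2 resembled each other, as did 3 and 4. The ranges of 3 of the 6 neighbouring pairs did not overlap. MCM3 was above MCM4 in 4 of 4 libraries (log2 ratio 0.58, SE 0.08), MCM5 above MCM6 in 4 of 4 (0.30, SE 0.07) and MCM6 above MCM2 in 4 of 4 (0.70, SE 0.06). Each of these gave an exact permutation p of 0.13, or 0.25 with Benjamini-Hochberg adjustment over the 6 pairs. The other pairs did not differ beyond their spread. MCM7 over MCM3 had a log2 ratio of 0.04 (SE 0.10, exact p = 0.625, adjusted 0.875) and was positive in 2 of 4 libraries. MCM4 over PCNA had 0.06 (SE 0.21) and PCNA over MCM5 had -0.02 (SE 0.24), each positive in 2 of 4 libraries with an exact p and an adjusted p of 0.875. The place of PCNA in the order therefore differed by library, between MCM4 and MCM3 in libraries 3 and 4 and next to MCM6 in libraries 1 and 2.

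The helicase subunits are needed in equal numbers, but their transcript ends were not equal. The mean of MCM7 was 3.16-fold that of MCM2. Of all reads of the MCM genes, MCM7 took 24.5% ± 1.19, MCM3 23.9% ± 2.198, MCM4 15.9% ± 0.521, MCM5 15.4% ± 0.690, MCM6 12.5% ± 0.706 and MCM2 7.74% ± 1.04 (SD, n = 4). Summed, the MCM genes had 1590, 1671, 1669 and 1688 CPM in libraries 1 to 4, a coefficient of variation of 2.66%, which is 6.56% when library sizes are scaled by TMM. PCNA stood at 0.746 times the mean MCM gene in library 1 and 0.680 times in library 2, but at 1.21 times in library 3 and 1.13 times in library 4. This ratio is taken within a library and does not depend on how libraries are scaled.

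The same contrast was read against all loci, pair by pair. With 1 library on each side there is no test, and a gene was counted when its CPM differed 1.5-fold or more. Over libraries 3 and 1, 8.41% of the 11100 loci with at least 100 reads were at least 1.5-fold higher in library 3 and 12.8% were at least 1.5-fold lower. PCNA was the member counted, at 1.70-fold. It was also counted in library 4 over 1 at 1.61-fold (8.14% of loci higher and 12.6% lower), in 3 over 2 at 1.78-fold (15.0% and 15.8%) and in 4 over 2 at 1.67-fold (14.4% and 15.6%). No MCM gene was counted in any of the 6 pairs, and no member at all in library 2 over 1, with 2.27% of loci higher and 5.05% lower, or in 4 over 3, with 2.70% and 2.23%. All members had at least 1000 reads. Among the 3735 loci of that depth, 10.6% were counted in library 3 over 1 and 9.45% in 4 over 1. The share was 18.6% in 3 over 2 and 16.7% in 4 over 2. Of those counted, 64.1%, 69.4%, 66.0% and 68.9% were higher. Having 1 of 7 genes counted is close to the shares of loci counted. With library sizes scaled by TMM the median of the 11100 loci in library 3 over 1 moved to 0.11 from -0.02 on the log2 scale. The share of higher among those counted moved to 53.4% from 39.7%. PCNA was counted in the same 4 pairs.

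**Figure D2:**
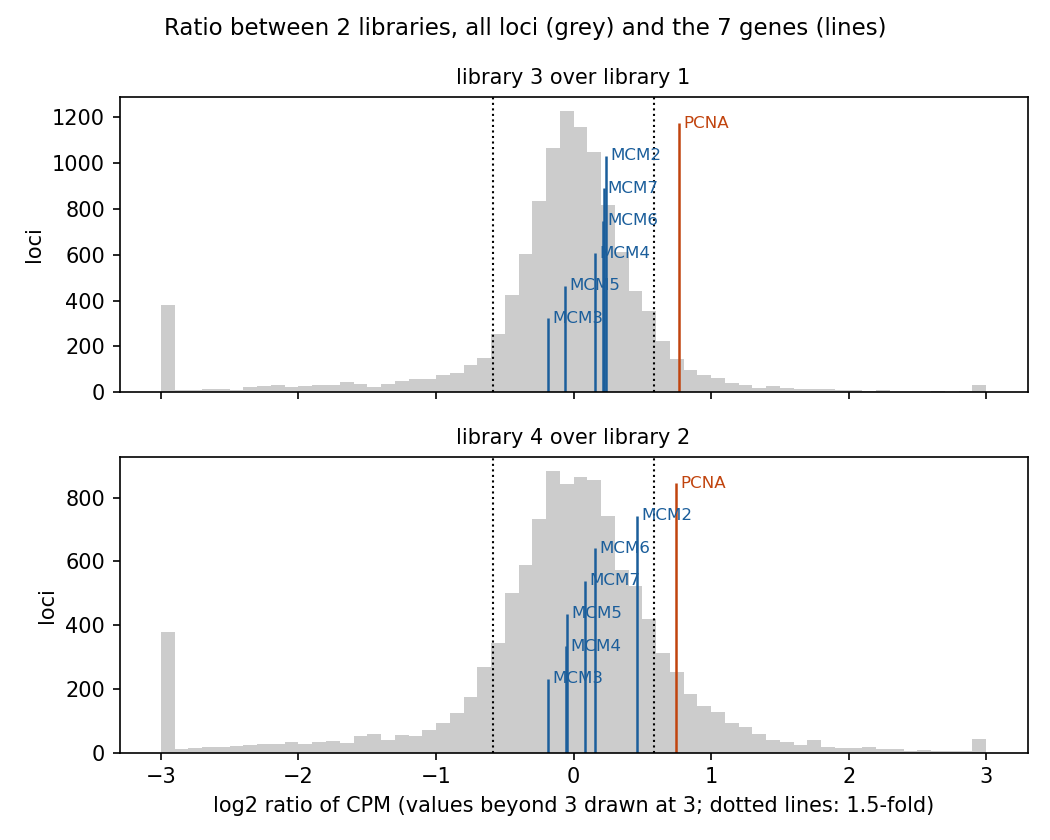
Number of loci (vertical axis) by the log2 ratio of CPM between a pair of libraries (horizontal axis), with the 7 genes as labelled lines whose heights carry no value; dotted lines mark 1.5-fold. PCNA lies beyond the line in both panels, at 1.70-fold and 1.67-fold, and the MCM genes lie inside it.

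Small shifts of MCM genes followed the same division of libraries. MCM2, MCM6 and MCM7 had each a higher CPM in both libraries 3 and 4 than in libraries 1 and 2, and MCM3 had a lower one in both. These orders held under TMM scaling. For MCM3 under that scaling the margin was small, with 389.2 CPM in library 4 and 394.0 in library 1. MCM4 and MCM5 showed no such order in CPM. Under TMM scaling MCM4 did, with 281.3 in library 3 and 274.2 in library 4, against 231.6 in library 1 and 267.4 in library 2, while MCM5 did not. How many of all loci have such an order was not counted, so it cannot be called particular to these genes. Profiles over the 4 libraries, on log2(CPM + 1) minus their mean, were compared by Euclidean distance. MCM6 and MCM7 were the closest members, at 0.0570, and PCNA was the most distant from any other, at 0.429 from its nearest, MCM2. Outside the windows, the loci nearest to the mean profile of the 7 genes were on the plus strand of chromosome 7 (48147996 to 48148029), chromosome 15 (41149848 to 41149861) and chromosome 16 (15131523 to 15131558), at distances of 0.00981, 0.0210 and 0.0243. Of the 3728 loci with at least 1000 reads outside the windows, 28.9% lay nearer to that mean than the median member did, so profiles that near to it are common in these 4 libraries. The members did not share 1 profile. The share of loci nearer to the mean ran from 0.0536% for MCM6 to 84.0% for PCNA, with 58.5% for MCM3.

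The places where each gene ended were counted next. A region was counted as in use, or passing, with at least 10 reads and 5% of the reads of its gene. Of the 22 regions, 11 passed and 11 fell short of the share, since each of the 22 had at least 10 reads. MCM2, MCM5, MCM6 and MCM7 had 1 passing region each, MCM3 and PCNA had 2 and MCM4 had 3. Thus 3 of 7 genes had several; without library 1, MCM7 had 2 as well. Among the 3511 loci with 1000 to under 10000 reads, the range in which all members fell, 47.7% had several (95% Wilson interval 46.1% to 49.4%), so the share of members is near that of other loci. With a minimum of 1% in place of 5%, 6 of 7 genes had several, all but MCM2.

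**Figure D3:**
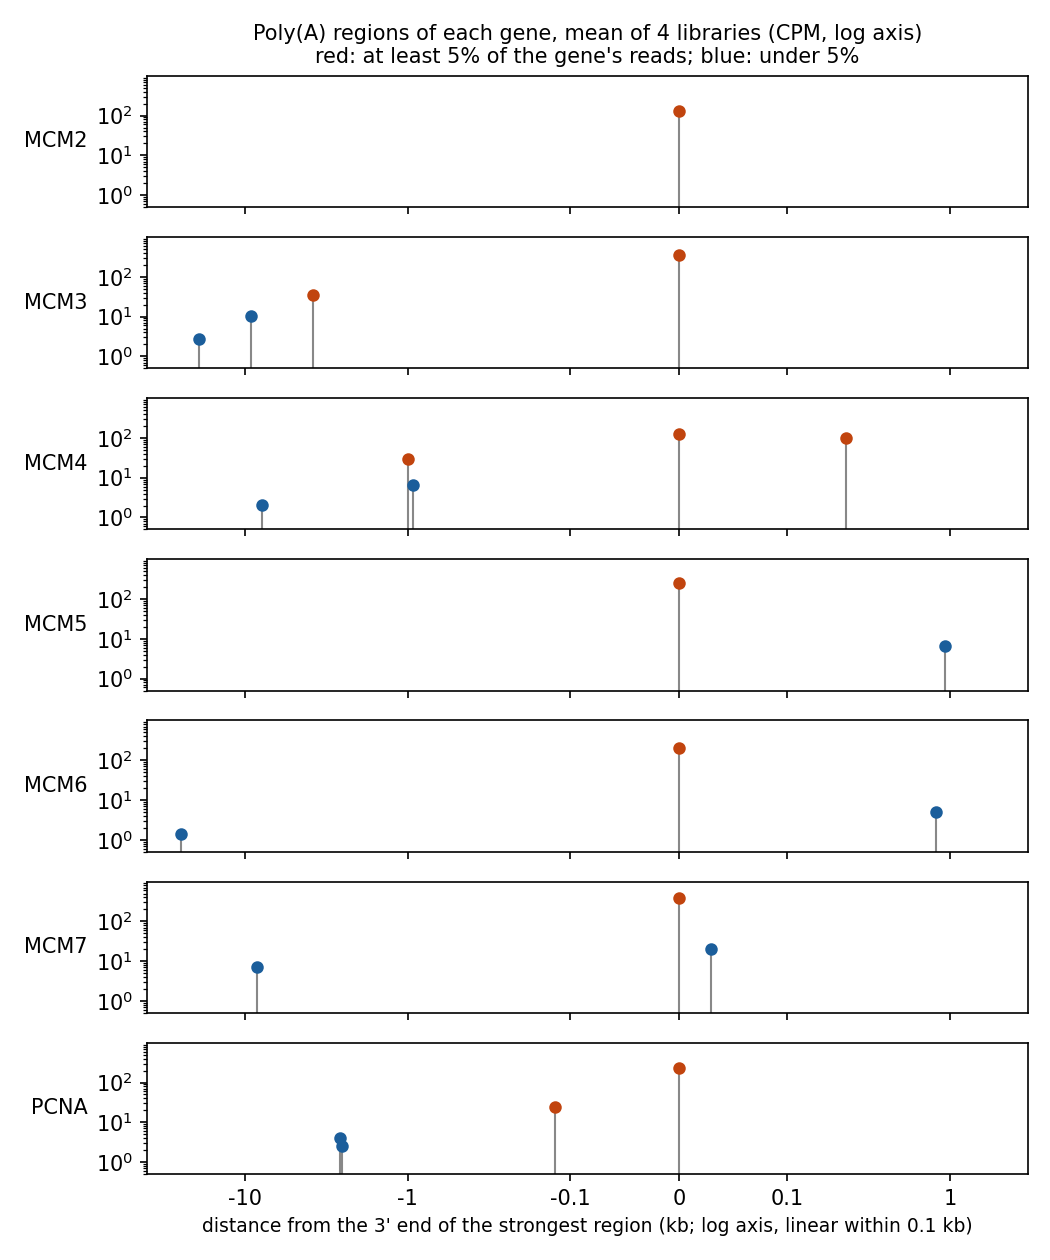
Mean CPM of each poly(A) region (vertical log axis) against its distance from the strongest region of the gene (horizontal axis in kb, log beyond 0.1 kb, upstream to the left), 1 panel per gene; red regions hold at least 5% of the gene's reads. MCM4 alone has a strong region downstream of its strongest, at 229 bases, and MCM2 has a single region.

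MCM2 had all of its 2229 reads in 1 region, at 127341249 to 127341301 on chromosome 3 (plus strand). With no read elsewhere in the window, the Wilson interval of this share reaches down to 99.8%. MCM5 put 97.4% ± 0.626 of its reads (SD, n = 4) into the region from 35820470 to 35820511 on the plus strand of chromosome 22, and the rest into a region 938 bases further downstream. MCM6 put 96.8% ± 0.437 (SD, n = 4) into the region from 136597998 to 136598032 on the minus strand of chromosome 2. A region 820 bases downstream of it, held 2.48% ± 0.0875, and one 24658 bases upstream held 23 reads in all. In both genes the strongest region was thus not the most 3' one.

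MCM4 was the one gene with its reads divided between strong neighbours. On the plus strand of chromosome 8 the strongest region, 48890465 to 48890499, took 49.7%, 48.3%, 48.0% and 47.2% of the gene's reads in libraries 1 to 4. The most 3' region, 48890697 to 48890728, whose end lies 229 bases downstream, took 36.3%, 37.7%, 37.3% and 38.0%. A further region, 48889444 to 48889499, with its end 1000 bases upstream of the strongest, took 10.5%, 10.3%, 11.6% and 12.1%. The division was steady: the share of the strongest region spanned 2.53 percentage points over the libraries. Of the 1745 loci with at least 1000 reads and several passing regions, 93.0% spanned more, with a median of 7.65 points. These loci were not matched for depth: MCM4 had 4461 reads, and a share varies more by counting error where reads are fewer. How much of the 93.0% is owed to shallower loci was not tested. Among passing regions alone the most 3' one took 38.6% ± 0.726 (SD, n = 4). The remaining MCM4 regions, 930 and 7880 bases upstream of the strongest, held 2.45% ± 0.253 and 0.788% ± 0.293 (SD, n = 4).

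MCM3 ended mainly at 52128800 to 52128878 on the minus strand of chromosome 6, and this region was nearly level across libraries, with 358.6, 350.3, 337.3 and 342.3 CPM (347.1 ± 9.36, SD, n = 4). A region 3847 bases upstream, 52132647 to 52132743, was not: it had 42.6 CPM in library 1 and 56.4 in library 2, but 18.2 in library 3 and 21.1 in library 4. Its share of MCM3 reads was 10.3%, 13.2%, 5.01% and 5.61%. The MCM3 total was lower by 50.3 CPM in library 3 than in library 1, of which 24.4 CPM lay in this region, and by 51.5 CPM in library 4 than in library 2, of which 35.3 CPM lay here. The CPM of library 3 over library 1 was 0.427 there (95% counting interval 0.335 to 0.542), and of library 4 over library 2 it was 0.374 (0.280 to 0.498). A pair of weaker regions 9223 and 19306 bases upstream held 154 and 44 reads. Whether these upstream regions lie in introns or exons was not examined, since no hg19 annotation was used.

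PCNA was read on the minus strand of chromosome 20, and its higher total in libraries 3 and 4 came from 1 region. The strongest and most 3' region, 5095586 to 5095633, had 163.3 CPM in library 1 and 148.8 in library 2, but 311.5 in library 3 and 294.4 in library 4, that is 1.91-fold in library 3 over 1 and 1.98-fold in library 4 over 2. The passing region whose end lies 125 bases upstream, 5095711 to 5095747, had 24.6, 26.3, 23.5 and 22.1 CPM, 24.1 ± 1.80 (SD, n = 4), with no such division. Its share of PCNA reads therefore came to 12.4% in library 1 and 13.9% in library 2, but to 6.97% in library 3 and 6.96% in library 4. The share of the strongest region spanned 14.3 percentage points over the libraries. A wider span was found at 20.4% of the 1745 loci with several passing regions, and at 33.3% of them one wider than that of MCM3, 10.9 points. Here too the loci were not matched for depth.

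The far upstream PCNA regions went the other way. Those at 5098197 to 5098210 and 5098110 to 5098134, 2611 and 2524 bases upstream, together had 51, 31, 9 and 3 reads in libraries 1 to 4. This is 4.95% of PCNA reads in library 1 and 7.56% in library 2, but 0.468% in library 3 and 0.237% in library 4. The CPM of library 3 over library 1 was 0.161 (95% counting interval 0.0697 to 0.330), and of library 4 over library 2 it was 0.0526 (0.0103 to 0.168). So the PCNA regions did not share 1 pattern: the main end was higher in libraries 3 and 4, its close neighbour level, and the distant ones lower.

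MCM7 ended at 99690372 to 99690428 on chromosome 7 (minus strand), with 346.9, 364.6, 410.1 and 393.5 CPM, or 93.4% ± 0.946 of the gene's reads (SD, n = 4). A region whose end lies 30 bases further downstream, 99690342 to 99690361, held 4.92% of all MCM7 reads, just under the 5% minimum. Merged with it, the main end took 98.2%. A weak region 8509 bases upstream, 99698881 to 99698898, had 52, 28, 17 and 8 reads. Its CPM in library 3 over library 1 was 0.298 (95% counting interval 0.162 to 0.524) and in library 4 over library 2 it was 0.155 (0.0611 to 0.349). Counting intervals were computed only for this region, the MCM3 region 3847 bases upstream and the far upstream PCNA regions. All of these were lower in libraries 3 and 4, so the intervals lend such a division no support. The MCM4 region 1000 bases upstream went the other way, at 1.23 in library 3 over 1 and 1.14 in library 4 over 2.

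**Figure D4:**
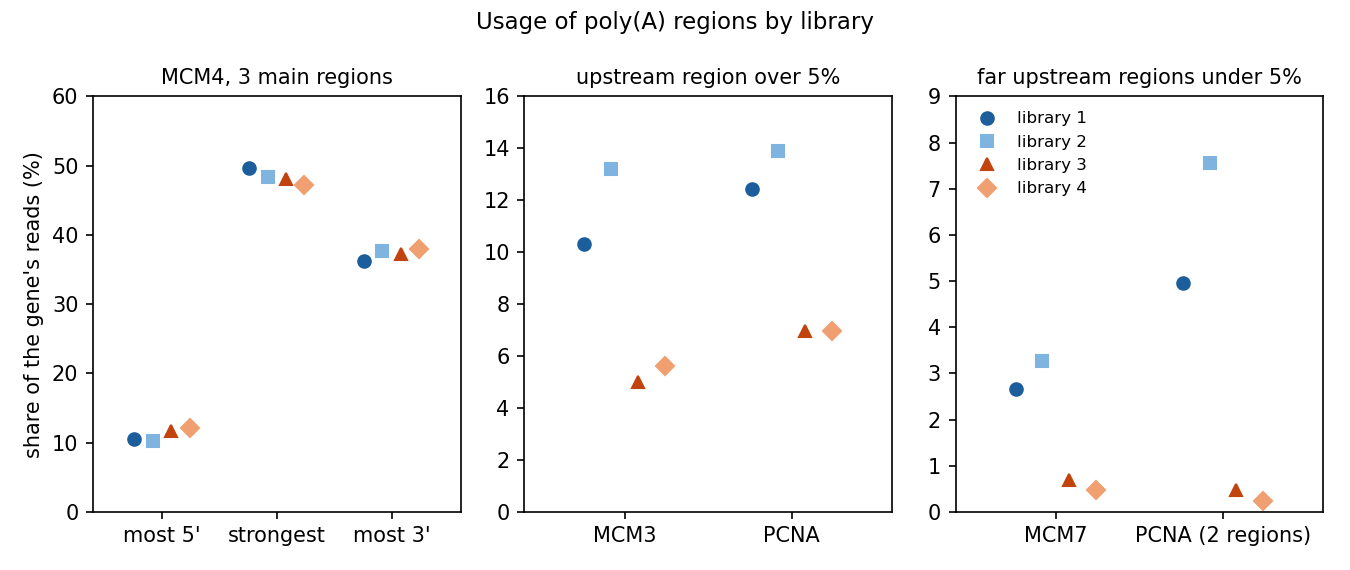
Share of the gene's reads (vertical axis, percent) in single poly(A) regions, by library: the 3 passing regions of MCM4 from 5' to 3', the passing upstream regions of MCM3 and PCNA, and the far upstream regions of MCM7 and PCNA. MCM4 shares stay within 2.53 points, while the upstream shares of the other genes lie lower in libraries 3 and 4, at 5.01% and 5.61% for MCM3 and 0.237% and 0.468% for the far upstream PCNA regions.

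Regions other than the strongest were then counted between libraries, wherever they lay in the gene. Of the 18 member regions with at least 50 reads, 5 were at least 1.5-fold lower in library 3 than in library 1, against 20.6% of the 22134 regions of that depth. All 5 were among the 11 regions that were not the strongest of their gene, and none among the 7 strongest. They were 2 regions of MCM3, 1 each of MCM7 and PCNA, all upstream of the main end, and the downstream region of MCM5. Over libraries 4 and 2 the count was again 5, against 23.8%. Over all 18 regions these shares are near the background. In the whole table, regions that were not the strongest of their locus were lower by 1.5-fold or more in library 3 than in library 1 in 22.2% of cases and the strongest ones in 19.5%. For library 4 over 2 these were 25.8% and 22.5%. The minimum of 50 reads was set on the 4 libraries summed, so a weak region could reach it through the libraries where it was high. The PCNA region counted as lower had 30, 20, 6 and 2 reads in libraries 1 to 4. Being lower in libraries 3 and 4 is then partly fixed by the minimum. The 5 of 11 lie above such shares and the 0 of 7 below them in both pairs, but nothing is drawn from this. These are few regions, and whether the split is particular to the members was not tested. The single member region at least 1.5-fold higher was the main PCNA end, in library 3 over 1 (11.7% of regions) and in 4 over 2 (18.6%). The share of narrow regions divided the libraries in the same way. No member region was that narrow, the narrowest having 14 bases. Without narrow regions the mean of PCNA was 262.2 CPM, against 260.2 with them. Narrow regions held at most 1.80% of the reads of a library, so leaving them out could move a CPM only slightly. A mean over the 4 libraries also does not show the difference between them. What underlies the division of the libraries was not tested.

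Of the 7 windows, that of MCM7 alone held regions on the opposite strand. They lay on the plus strand at 99689483 to 99689588 and 99689788 to 99689830, with ends 784 and 542 bases from the main MCM7 end, so that the transcripts meet tail to tail. They had 226.9 ± 8.24 and 56.4 ± 3.68 CPM (SD, n = 4). On GRCh38.p14, RefSeq lists COPS6 and AP4M1 as the protein-coding neighbours of MCM7, but which gene these regions belong to was not settled here. None of the 7 genes had a further region on its own strand within 5 kb downstream of its window.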

How the data were processed

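Poly(A) sites were sequenced from 4 libraries of DICER(ex5) cells. The authors deposited 1 table of raw counts, with a row for each region of poly(A) sites and a column for each library, per the file headers. Alignment used Bowtie2 2.2.5 with the build hg19, per the submitters' processing notes. The sources used here do not say how regions were formed, or whether the degenerate primer bases served to remove PCR duplicates, so intervals cover counting error only. Oligo(dT) can prime on internal A-rich stretches; with no hg19 genome, these, poly(A) signals and exons were not examined. Positions are printed as deposited.

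The windows, members and lists were chosen with earlier results of these data known. All 7 genes and their regions with at least 5% of the reads are named. Counts were divided by the library total (CPM). Orders were tested by exact sign-flip permutation (Python 3.11.15, numpy 2.4.6). Pairs of libraries were compared by fold over all loci, a step tested on simulated data. Apart from planted changes, the simulated counts varied by counting error alone. They therefore do not show how the step behaves on these libraries. TMM (edgeR 4.0.16) and size factors (DESeq2 1.42.0) were alternatives. Planned lists of other replication genes were not used, lacking an hg19 annotation. Symbols and sequences came from RefSeq, GRCh38.p14; E2F spellings were chosen after the promoters had been seen.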

Additional observations from a re-analysis of the deposited data

How the results depend on the processing

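Levels kept within 1 SD of their reported means under TMM or DESeq2 scaling, without narrow regions, with windows extended by 5 kb and without any library. Taking only the strongest region gave 347.1 CPM for MCM3 and 127.0 CPM for MCM4. With that choice the log2 ratio of MCM4 over PCNA turned to -0.78. Leaving out 1 library in turn gave a log2 ratio of -0.034 to 0.10 for MCM7 over MCM3, -0.093 to 0.19 for MCM4 over PCNA and -0.19 to 0.14 for PCNA over MCM5, so these orders have no fixed direction. The other 3 neighbouring pairs kept their direction under every alternative run.

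The number of passing regions depended on the minimum share. At 1%, MCM5 and MCM6 had 2, MCM3, MCM7 and PCNA had 3 and MCM4 had 4, so that 6 of 7 genes had several. At 10%, MCM3 and PCNA had 1 each, which leaves them no distal share. Without 1 library in turn MCM7 had 1 or 2, the 2 without library 1. The distal share of MCM4 was 37.6% both at 1% and with ends within 100 bases merged. With passing regions alone as the denominator, the strongest region took 49.9% of MCM4 reads and 100% of those of MCM5, MCM6 and MCM7, and with merged ends it took 98.2% for MCM7.

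The percentile of a level depends on the loci admitted. Among loci with at least 100 reads it was 84.4 for MCM2, 96.5 for MCM3, 93.7 for MCM4, 93.5 for MCM5, 91.3 for MCM6, 96.6 for MCM7 and 93.6 for PCNA. With regions joined within 1 kb it was 92.6, 98.3, 97.1, 97.0, 95.9 and 98.4 for MCM2 to MCM7. At 2-fold instead of 1.5-fold, 0 members were counted in library 3 over 1, 4 over 1, 3 over 2 and 4 over 2. Of the 11100 loci with at least 100 reads, 11.6%, 11.1%, 15.7% and 15.1% were counted in these pairs, so 0 of 7 is near the background. Under TMM, other read minimums and thinning, the members counted at 1.5-fold were the same. The share of loci counted in library 3 over 1 was then 23.6% under TMM and 19.9% after thinning. It was 40.6% with no minimum of reads and 10.6% with at least 1000 reads. No paired comparison of conditions was possible because all libraries belong to 1 group. The ratios of neighbours in the order were paired by library. Among 31 levels and shares, 0 had a single outlying library, where chance alone would give about 1 in 20. These values share reads, so they are not independent. A check for 1 odd library cannot show a division of libraries 1 and 2 from libraries 3 and 4. Upstream regions of few reads are limited by depth.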
